A study of Caenorhabditis elegans with 9 samples.

Results

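The 7 genes F01D5.1, F01D5.5, C55C3.3, scrm-4, tin-10, lips-10 and T27F6.7 were chosen because their transcripts differed from the wild type in the same direction in both mutants of O-GlcNAc cycling. They were measured by 8 probe sets, since lips-10 has 2, of 22548 probe sets tested and 17118 genes measured on the array. The values that chose them are the differences of each mutant from the wild type, so those differences are given below as a description, with no test. Counts of the 7 genes that passed the threshold against the wild type are likewise a description. Otherwise tests are reported only for other genes and for the direct difference between the mutants, which the choice did not use. That difference comes from the same mutant arrays as the values that chose the genes, so its test is not independent of the choice.

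Transcripts of fed Caenorhabditis elegans L4 larvae, the last larval stage, were measured on Affymetrix arrays. There were 3 arrays each of the wild type, of ogt-1(ok430), which lacks the O-GlcNAc transferase, and of oga-1(ok1207), which lacks the O-GlcNAcase, labelled as biological replicates. Each array held amplified RNA pooled from 20 larvae, which had been picked by hand and matched by how far the vulva had formed. The labels do not say whether replicates came from separate cultures, so the tests measure the spread between these samples, which may be technical. Each gene was mutated by 1 allele in 1 strain, so an effect of the mutation and of any other difference between the strains cannot be told apart. In RNA of whole larvae, fewer cells of a type and less RNA per cell cannot be told apart either.

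O-GlcNAc is a single sugar that is attached to serine and threonine residues of proteins inside the cell. The enzyme encoded by ogt-1 adds it and the enzyme encoded by oga-1 removes it, so loss of the transferase and loss of the O-GlcNAcase change the modification in opposite ways. In C. elegans, mutants of either enzyme are viable and are known for altered stores of fat and carbohydrate. Among the 7 genes, tin-10 encodes the worm counterpart of yeast Tim10, a small chaperone of the space between the mitochondrial membranes that escorts hydrophobic proteins to the inner membrane. The gene scrm-4 belongs to a family named for phospholipid scramblases, which are known in mammals, and lips-10 to a family of lipase-related genes. The files and the reference tables give no role for F01D5.1, F01D5.5, C55C3.3 or T27F6.7, and none is given here.

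The 9 arrays shared the same mean log2 signal, 5.91, had medians from 5.21 to 5.3 and lowest values from 3.49 to 3.61. The main ogt-1 probe set fell by 0.87 in ogt-1 mutants (limma adjusted p = 8.9e-05), while the 3 oga-1 probe sets, which were dim, differed by -0.32 to -0.25 in oga-1 mutants and were not called (limma adjusted p = 0.22 to 0.31). The position of these probe sets relative to the deletions was not analysed here. Major sperm protein genes, made in L4 hermaphrodites, were bright on every array, at 13.15 to 14.68 for the 5 measured, while the sperm function genes spe-9 (4.66 to 5.37) and fer-1 (5.06 to 5.32) lay near the array medians. The 4 male genes mab-3, clec-207, lov-1 and pkd-2 stayed between 4.77 and 5.11 as a list mean. The yolk genes, which are known for their high expression in adults, were also bright in all groups, at list means from 12.11 to 12.95 over 5 of 6, and so were 5 oocyte genes, at 9.57 to 10.59. In ogt-1 mutants 4 of the 5 oocyte genes and 3 of the 5 yolk genes fell, where 9.15% of all probe sets did. In oga-1 mutants 0 of either list were called by limma, where 0.257% of all probe sets were, although 3 of the oocyte genes and 1 yolk gene had an unadjusted p under 0.05, with list medians of 0.36 and 0.10. Of 7 sperm genes, spe-9 and fer-1 among them, 1 rose in ogt-1 mutants, where 8.1% of all probe sets did. Their list means were 11.64 to 11.68 on the ogt-1 arrays and 11.34 to 11.59 on the wild-type arrays. Of 4 intestine genes 1 rose and 2 fell in ogt-1 mutants, where 8.1% and 9.15% of all probe sets did. In oga-1 mutants 0 of the sperm or intestine genes were called by limma. The part of these markers in the results below was not tested. The control probe sets of actin differed in both mutants. Their 3' minus 5' signal was 4.73 to 4.82 on the wild-type arrays, 3.90 to 4.14 on the ogt-1 arrays and 3.90 to 4.39 on the oga-1 arrays (two-sided exact permutation p = 0.1 for each mutant, the smallest possible with 3 against 3 arrays). The actin measure, which reads how far the amplified RNA reached, thus separated both mutants from the wild type, and it and the strain cannot be told apart. The same measure on the Gapdh controls ran from 3.13 to 3.31 on wild-type arrays, from 2.72 to 2.96 on ogt-1 arrays and from 2.95 to 3.28 on oga-1 arrays, so that ogt-1 lay apart (two-sided exact permutation p = 0.1) and oga-1 overlapped the wild type (exact permutation p = 0.2). The part of RNA quality in the results was not tested.

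Of the 7 genes, 4 were higher and 3 were lower in both mutants than in the wild type. The higher genes were F01D5.1, F01D5.5, lips-10 and T27F6.7, and the lower genes were C55C3.3, scrm-4 and tin-10. For all 7, at their brightest probe sets, each mutant's 3 arrays were all above or all below the wild type. The gaps were 0.20 to 2.16 log2 units for ogt-1 and 0.39 to 0.76 for oga-1. Over all probe sets, 33.1% did not overlap between ogt-1 and the wild type and 20.5% did not overlap between oga-1 and the wild type, and all 6 mutant arrays were above or all were below the wild type in 4.71%. The difference was larger in ogt-1 mutants for 4 of the 7 genes and larger in oga-1 mutants for the other 3.

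**Figure D1:**
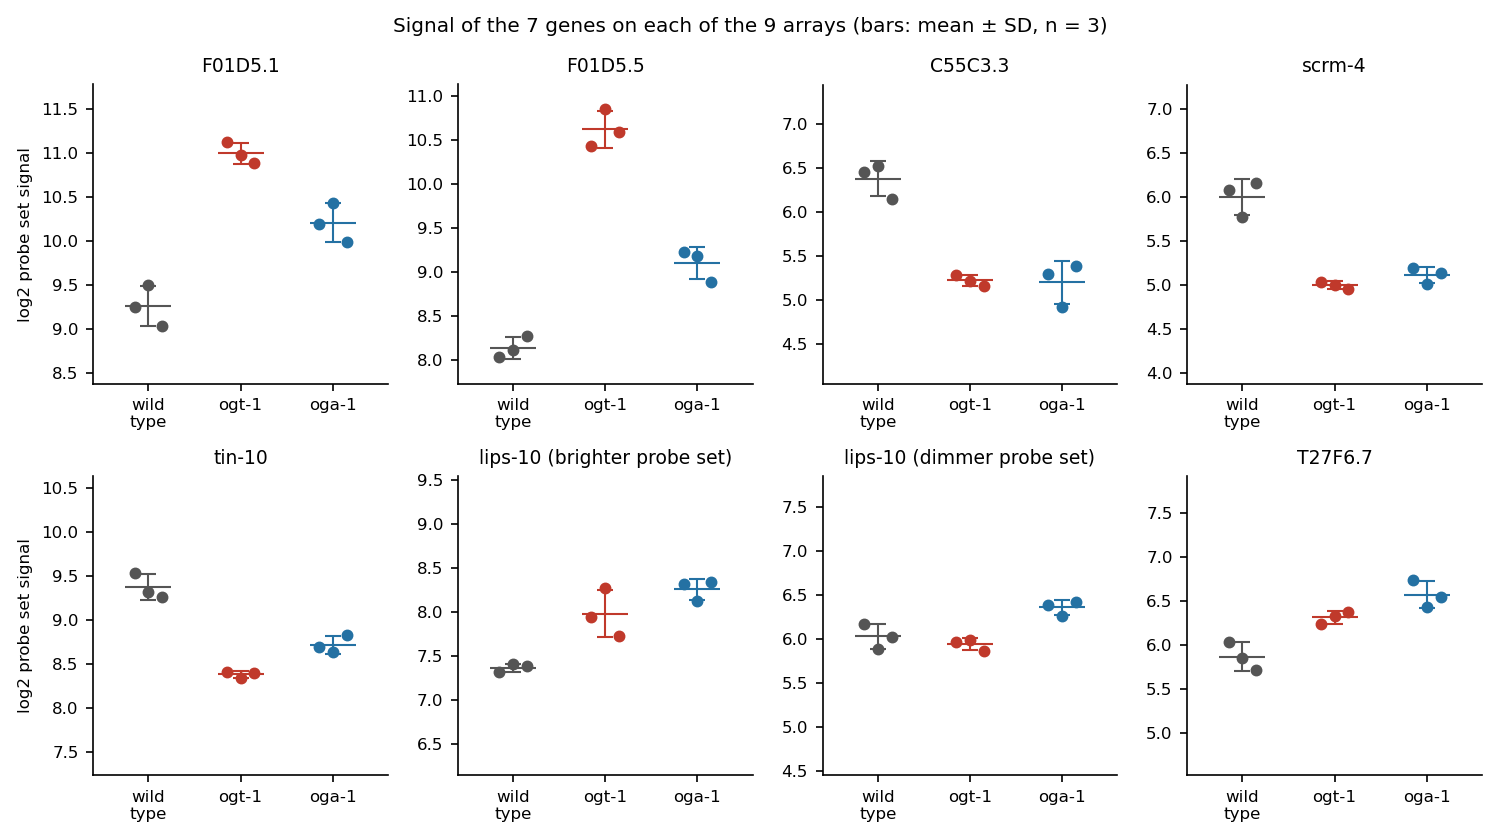
Log2 probe set signal (vertical axes, each spanning the same range) of the 8 probe sets on the 3 wild-type, 3 ogt-1 and 3 oga-1 arrays. Points are arrays, and bars give the mean and SD of 3. All panels but the one of the dimmer lips-10 probe set show both mutants on one side of the wild type.

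The neighbouring genes F01D5.1 and F01D5.5 showed the largest rises of the group. F01D5.1 read 9.25, 9.49 and 9.04 on the wild-type arrays, 11.13, 10.97 and 10.89 on the ogt-1 arrays, and 10.19, 10.44 and 9.99 on the oga-1 arrays. The 3 groups did not overlap, with oga-1 mutants between the wild type and ogt-1 mutants. The means, in the order wild type, ogt-1 and oga-1, were 9.26 ± 0.23, 11.00 ± 0.12 and 10.21 ± 0.22 (SD, n = 3 each). F01D5.1 was thus 3.33-fold higher in ogt-1 mutants and 1.93-fold higher in oga-1 mutants. Its probe set is of the Affymetrix type marked _s_at, which can match more than 1 transcript, although the platform annotation lists F01D5.1 alone.

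F01D5.5 read 8.03, 8.11 and 8.27 in the wild type, 10.43, 10.85 and 10.59 in ogt-1 mutants, and 9.23, 9.19 and 8.89 in oga-1 mutants. Its groups did not overlap either, and they came in the same order. The means were 8.14 ± 0.12, 10.62 ± 0.21 and 9.1 ± 0.18 (SD, n = 3 each), a 5.59-fold rise in ogt-1 mutants and a 1.95-fold rise in oga-1 mutants. In oga-1 mutants the log2 differences of F01D5.1 and F01D5.5 from the wild type were alike, 0.95 and 0.96, whereas in ogt-1 mutants they were 1.74 and 2.48.

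The lipase-related gene lips-10 was higher by its brighter probe set, and its dimmer probe set gave another picture. The brighter one read 7.32, 7.41 and 7.38 in the wild type, 7.94, 8.27 and 7.73 in ogt-1 mutants, and 8.31, 8.12 and 8.34 in oga-1 mutants. Both mutants lay above every wild-type array and overlapped each other. Its log2 difference was 0.61 in ogt-1 mutants and 0.89 in oga-1 mutants, and its SD among the ogt-1 arrays, 0.27, was the largest of the 7 genes in that strain. The dimmer probe set read 6.17, 5.88 and 6.02 in the wild type, 5.97, 5.99 and 5.86 in ogt-1 mutants, and 6.38, 6.26 and 6.42 in oga-1 mutants. By it the ogt-1 arrays overlapped the wild type, with a difference of -0.09, and the oga-1 arrays lay above it by 0.33. That lips-10 differed alike in both mutants therefore rests on 1 of its 2 probe sets, and with the mean of both the differences were 0.26 and 0.61.

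T27F6.7 showed the smallest difference of the 7 in ogt-1 mutants. It read 6.04, 5.85 and 5.71 in the wild type, 6.23, 6.33 and 6.37 in ogt-1 mutants, and 6.73, 6.43 and 6.55 in oga-1 mutants. The groups did not overlap, and the oga-1 arrays were highest, though only 0.05 separated the lowest oga-1 array from the highest ogt-1 array. The means were 5.87 ± 0.16, 6.31 ± 0.07 and 6.57 ± 0.15 (SD, n = 3 each), a rise of 1.36-fold in ogt-1 mutants and 1.63-fold in oga-1 mutants.

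Among the 3 lower genes the differences ran from -1.16 to -0.99 in ogt-1 mutants and from -1.17 to -0.66 in oga-1 mutants. C55C3.3 read 6.46, 6.52 and 6.15 in the wild type, 5.29, 5.22 and 5.15 in ogt-1 mutants, and 5.29, 4.92 and 5.39 in oga-1 mutants. The mutants overlapped each other and lay at least 0.76 below the lowest wild-type array. The log2 differences were -1.16 in ogt-1 and -1.17 in oga-1 mutants, which correspond to 2.23-fold and 2.26-fold lower signals.

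The scramblase family gene scrm-4 read 6.08, 5.77 and 6.15 in the wild type, 5.04, 5.0 and 4.95 in ogt-1 mutants, and 5.19, 5.01 and 5.13 in oga-1 mutants. Its mutant arrays all lay within 0.25 of each other and overlapped between the strains, and every wild-type array was higher. The log2 differences were -1.0 in ogt-1 and -0.89 in oga-1 mutants. For scrm-4 all 6 mutant values lay below the lowest array median, 5.21.

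The mitochondrial chaperone gene tin-10 read 9.54, 9.32 and 9.26 in the wild type, 8.41, 8.33 and 8.40 in ogt-1 mutants, and 8.69, 8.63 and 8.82 in oga-1 mutants. Its 3 groups did not overlap, and the oga-1 arrays lay between the other two groups. The means were 9.37 ± 0.14, 8.38 ± 0.04 and 8.71 ± 0.10 (SD, n = 3 each), so that tin-10 was 1.99-fold lower in ogt-1 and 1.58-fold lower in oga-1 mutants. Its probe set is also marked _s_at, with tin-10 as the only annotated gene.

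Both comparisons with the wild type use the same 3 wild-type arrays, so an odd wild-type value enters both differences of a gene. At the brightest probe set of each of these genes no mutant array overlapped the wild type. Leaving out an array could therefore change the size of a difference there but not its sign, so the kept sign adds no support. The ogt-1 arrays of the dimmer lips-10 probe set did overlap the wild type. Without 1 array the difference of C55C3.3 ranged from -1.27 to -1.08 in ogt-1 and from -1.29 to -1.04 in oga-1 mutants. For lips-10 the ogt-1 difference ranged from 0.47 to 0.74, and for T27F6.7 from 0.37 to 0.53. Of the 3 arrays with the widest spread over probe sets (SD above 1.8), 1 was an ogt-1 and 2 were oga-1 arrays. Without these 3 the oga-1 difference was 1.18 for F01D5.1, -1.45 for C55C3.3 and 0.56 for T27F6.7, from the single oga-1 array that remained.

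The 7 genes belong to a larger set of probe sets that were called in both mutants in the same direction. A probe set was called at a limma adjusted p under 0.05. Against the wild type 17.3% of probe sets were called in ogt-1 mutants and 0.257% in oga-1 mutants, and 27 of 22548, or 0.12%, were called alike in both. These 27 were 22 higher and 5 lower, and the 7 genes account for 4 of the higher and 3 of the lower. The number of calls rested on single arrays: without wild-type array 1 it was 7, of which 1 was among the 7 genes, without wild-type array 2 it was 11 with 3 of them, and without oga-1 array 1 it was 13 with 2 of them. Without ogt-1 array 1 it was 47, with all 7. Without the 3 arrays of widest spread it was 2, with 0 of the 7. These counts use the contrasts that chose the genes and are given as a description.

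The other 20 probe sets were annotated to 18 genes, C14C6.5 with 2 probe sets, except for 1 that had no single annotated gene. That probe set is left unnamed and was lowest of all relative to the wild type, by -3.36 in ogt-1 and -2.71 in oga-1 mutants. The higher genes included the cathepsin B-like protease cpr-4 (5.55 in ogt-1 and 4.02 in oga-1 mutants), the acid ceramidase gene asah-1 (1.63 and 1.13) and the serine carboxypeptidase-like genes ctsa-1.2 (1.44 and 0.87) and ctsa-4.1 (0.90 and 0.97). The lysozyme lys-7 (2.38 and 0.98), the saposin-like spp-18 (1.39 and 0.60) and the C-type lectin clec-76 (2.57 and 0.87) were higher too. The cadmium-responsive cdr-1 (1.60 and 1.22), the claudin-like clc-11 (2.35 and 1.03), the syntaxin syx-4 (0.37 and 0.74) and taf-6.1, related to a subunit of the general transcription factor TFIID (0.47 and 0.56), were higher as well. The remaining higher genes were F55G11.2, mbug-1, C14C6.5, srlf-30, F26F4.5 and C05C10.5, and the remaining lower gene was svop-1 (-0.48 and -0.63). Among all 27, the difference was larger in ogt-1 mutants in 18 and larger in oga-1 mutants in 9, and the median size was 1.44 in ogt-1 and 0.89 in oga-1 mutants.

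**Figure D2:**
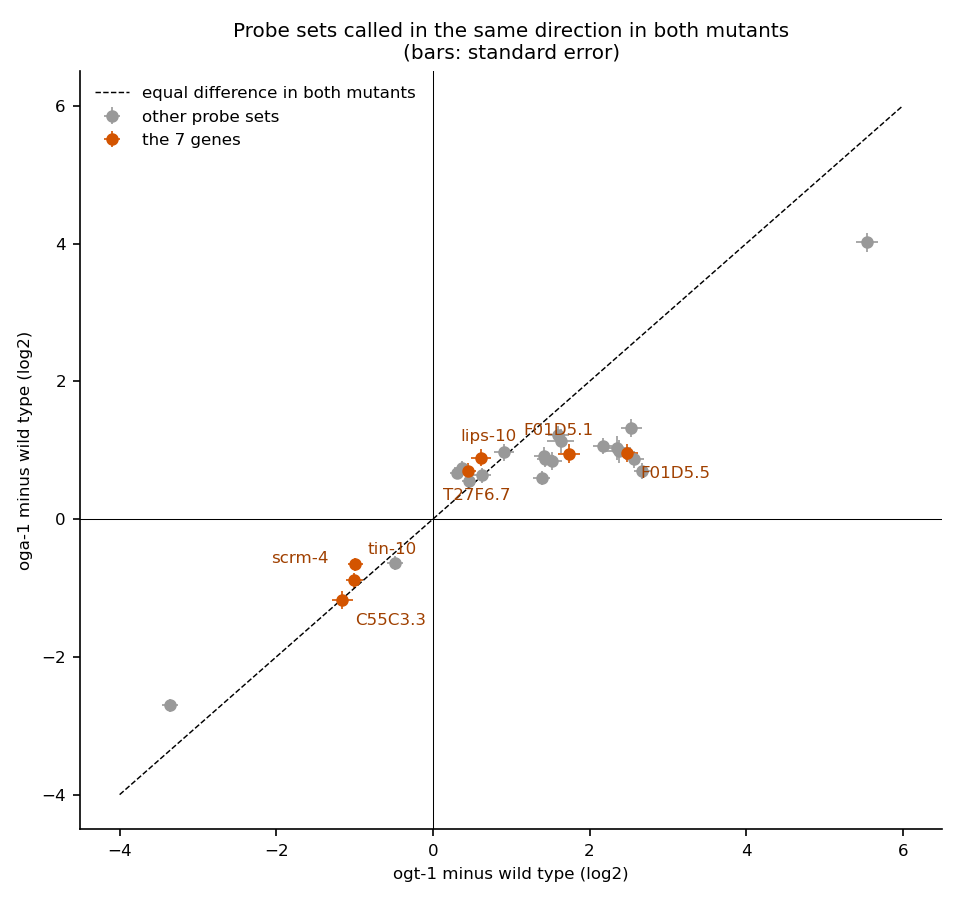
Log2 difference from the wild type in ogt-1 mutants (horizontal axis) and oga-1 mutants (vertical axis) of the 27 probe sets called in the same direction in both, with standard errors as bars and a dashed line of equal difference. The 7 genes are in orange. F01D5.1 and F01D5.5 lie below the line, while C55C3.3 and scrm-4 lie near it.

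The direct difference between ogt-1 and oga-1 mutants was not used by the choice. It is, however, the gap between the differences from the wild type that were used, so its test is not independent of the choice. A choice for like direction also favours small values. Between the mutants 3 of the 7 genes were called at their brightest probe sets, F01D5.1, F01D5.5 and tin-10. Of all probe sets 23.9% were called. The arrays of the mutants did not overlap for 4 of the 7, these 3 and T27F6.7, and for 35.6% of all probe sets. F01D5.5 was higher in ogt-1 than in oga-1 mutants by 1.52 log2 units (95% confidence interval 1.24 to 1.8, limma adjusted p = 1.2e-05), and F01D5.1 by 0.79 (0.49 to 1.09, limma adjusted p = 0.0015). Without the 3 arrays of widest spread F01D5.1 missed the threshold, at 0.62 (limma adjusted p = 0.079). The ogt-1 arrays lay above the oga-1 arrays in both genes, in all 3 arrays, by gaps of 1.21 and 0.45. The size of these rises thus differed between the mutants although their direction was shared. The chaperone gene tin-10 was lower in ogt-1 than in oga-1 mutants by a log2 difference of -0.33 (-0.55 to -0.12, limma adjusted p = 0.027). For tin-10 the call was lost after quantile normalization (limma adjusted p = 0.15), with an intensity trend (0.071), without the 3 arrays of widest spread (0.3), and when any ogt-1 array or oga-1 array 1 or 3 was left out (limma adjusted p = 0.05 to 0.106).

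The other 4 genes were not called between the mutants, which does not show that they were equal. For C55C3.3 the difference was 0.02 with an interval from -0.27 to 0.31, and for scrm-4 it was -0.12 with an interval from -0.36 to 0.12. The mutant signals of both genes lay near or below the array medians. The sign of the C55C3.3 difference turned to -0.010 after quantile normalization, to -0.019 after median centring and to -0.066 with array weights. T27F6.7 was lower in ogt-1 than in oga-1 mutants by a log2 difference of -0.26 (interval -0.50 to -0.02, limma adjusted p = 0.12), which misses the threshold after adjustment. For lips-10 the brighter probe set differed by -0.28 (limma adjusted p = 0.15) and the dimmer by -0.42 (limma adjusted p = 0.0083), both lower in ogt-1 mutants. The brighter probe set passed the test without ogt-1 array 2, at -0.42 (limma adjusted p = 0.026), and so did the mean of both probe sets, at -0.35 (limma adjusted p = 0.024).

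**Figure D3:**
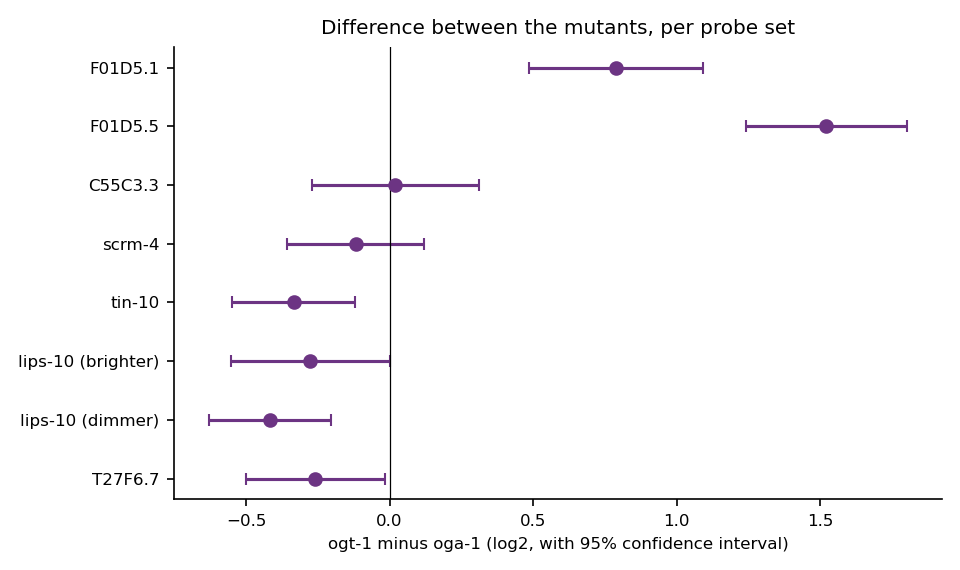
Difference between ogt-1 and oga-1 mutants (horizontal axis, log2) for each of the 8 probe sets, with 95% confidence intervals from the fit to all probe sets. The intervals of F01D5.1 and F01D5.5 lie to the right of 0, and those of tin-10, T27F6.7 and the dimmer lips-10 probe set to the left. The intervals of C55C3.3, scrm-4 and the brighter lips-10 probe set include 0. They are not adjusted for the number of probe sets.

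F01D5.1 and F01D5.5 lie close together on chromosome II, and the genes between them rose in ogt-1 mutants too. In the gene order of the WBcel235 assembly, 2 protein-coding genes, F01D5.2 and F01D5.3, and 1 pseudogene separate them. F01D5.2 read 8.23, 8.48 and 8.26 in the wild type, 10.35, 10.18 and 9.61 in ogt-1 mutants, and 8.68, 8.75 and 8.16 in oga-1 mutants. It rose by 1.73 in ogt-1 mutants (limma adjusted p = 1.0e-04) and differed by 0.21 in oga-1 mutants (limma adjusted p = 0.66), where its arrays overlapped the wild type. The 2 mutants differed by 1.52 for F01D5.2 (limma adjusted p = 1.9e-04), about as for F01D5.5.

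F01D5.3 read 9.0, 8.38 and 8.91 in the wild type, 9.89, 10.06 and 9.73 in ogt-1 mutants, and 9.21, 9.36 and 9.04 in oga-1 mutants. It rose by 1.13 in ogt-1 mutants (limma adjusted p = 4.3e-04), and its difference of 0.44 in oga-1 mutants did not pass the test (limma adjusted p = 0.23). Its oga-1 arrays lay above the wild type by a gap of 0.04, where 20.5% of all probe sets did not overlap. Beside this stretch the pseudogene fbxa-177 differed by -0.21 and the genes F01D5.6 and F01D5.7 by 0.04 and 0.02 in oga-1 mutants. None of these 3 was called in either mutant. The nearest protein-coding gene before F01D5.1, Y39G8B.7, differed by 0.14 in ogt-1 and by 0.44 in oga-1 mutants. It was not called (limma adjusted p = 0.43 and 0.091). Its mutant arrays lay above the wild type by gaps of 0.01 in ogt-1 and 0.24 in oga-1 mutants. All 6 mutant arrays were on one side of the wild type in 4.71% of all probe sets. Signals of F01D5.6 and F01D5.7 were between 4.23 and 4.88 on all arrays, below the array medians. Whether probes of these neighbouring genes share sequence was not analysed here. Of the 6 measured genes named for the same clone outside the 7, F01D5.2, F01D5.3 and F01D5.8 rose in ogt-1 mutants, a share to be read against 8.1% of all probe sets, and 0 were called by limma in oga-1 mutants (1 at an unadjusted p under 0.05), where their differences ran from -0.03 to 0.44 with a median of 0.12.

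**Figure D4:**
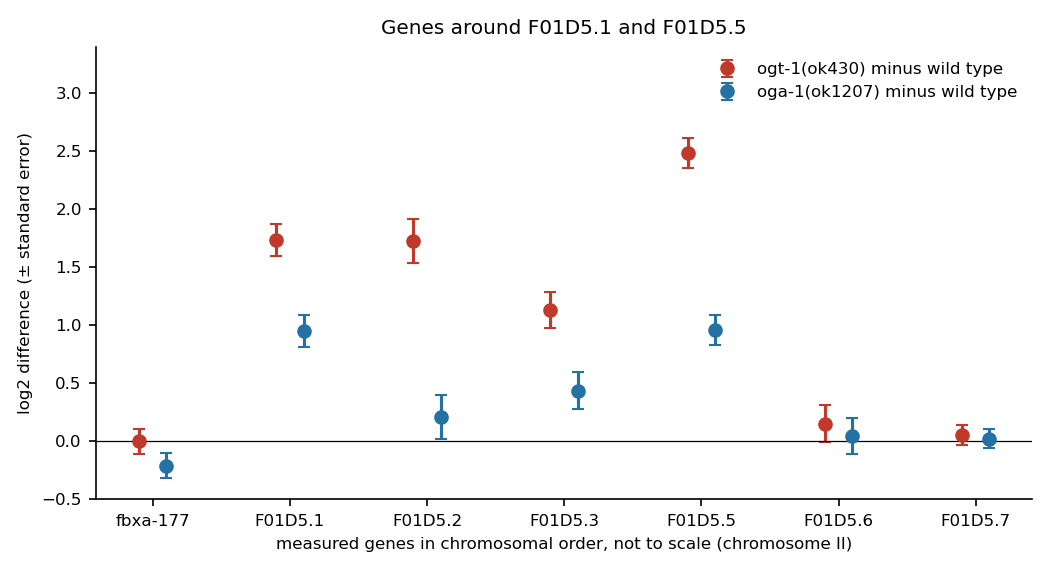
Log2 difference from the wild type (vertical axis, with standard errors) in ogt-1 and oga-1 mutants for the measured genes around F01D5.1 and F01D5.5, in chromosomal order and not to scale. The 4 genes from F01D5.1 to F01D5.5 are raised in ogt-1 mutants, while fbxa-177, F01D5.6 and F01D5.7 lie near 0.

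The other 5 genes lie elsewhere, scrm-4 and T27F6.7 on chromosome I, lips-10 on II, tin-10 on III and C55C3.3 on IV. The ogt-1 gene itself is on chromosome III, as is tin-10, and oga-1 is on X, which holds none of the 7. The 3 protein-coding genes on each side of the 7 genes came to 38, of which 29 were measured. In ogt-1 mutants 6 of these rose and 3 fell, where 8.1% and 9.15% of all probe sets did, and without wild-type array 2 a total of 5 were called. The risers include the 3 genes of clone F01D5 given above, and of the 24 neighbours outside that clone 3 rose and 3 fell, with a median of 0.00024. In oga-1 mutants 1 rose and 0 fell, where 0.191% and 0.0665% of all probe sets did. The medians of the neighbours were 0.05 in ogt-1 and 0.04 in oga-1 mutants, against -0.02 and -0.01 over all probe sets.

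The neighbour that rose in oga-1 mutants was asah-1, the third gene after T27F6.7 and the acid ceramidase gene named above, whose enzyme is known in mammals for splitting ceramide in lysosomes. It read 8.52, 8.62 and 9.04 in the wild type, 9.96, 10.53 and 10.60 in ogt-1 mutants, and 9.75, 9.90 and 9.93 in oga-1 mutants. The mutant arrays were all above the wild type. It rose by 1.63 in ogt-1 mutants (limma adjusted p = 7.3e-05) and by 1.13 in oga-1 mutants (limma adjusted p = 0.023). The second call was lost without wild-type array 1 or 2 or without any oga-1 array (limma adjusted p = 0.056 to 0.125). The neighbours that fell in ogt-1 mutants with the smallest p were Y66D12A.21, next to tin-10, at -0.65 (limma adjusted p = 6.0e-04), and acp-2, near lips-10, at -0.49 (limma adjusted p = 0.028). In oga-1 mutants they differed by -0.04 and -0.03 (limma adjusted p = 0.89 and 0.95). Y66D12A.24, on the other side of tin-10, also fell in ogt-1 mutants, at -0.44 (limma adjusted p = 0.049). Its difference in oga-1 mutants was -0.33 (limma adjusted p = 0.29). The call of acp-2 was lost after median centring and when wild-type array 2 or 3 or any ogt-1 array was left out (limma adjusted p = 0.0509 to 0.113).

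Against the 8.1% of all probe sets that rose and the 9.15% that fell in ogt-1 mutants, and the 0.257% called in oga-1 mutants, the counts of related genes can be read. Of the other 7 scramblase family genes 2 rose in ogt-1 mutants, 0 fell and 0 were called by limma in oga-1 mutants (1 at an unadjusted p under 0.05), while scrm-4 was lower in both. The risers were scrm-7 at 0.54 (limma adjusted p = 0.0028) and scrm-6 at 0.70 (limma adjusted p = 0.024), and scrm-6 missed the threshold when array 1 or 2 of either the wild type or ogt-1 was left out (limma adjusted p = 0.0585 to 0.0971). The family's median difference was 0.21 in ogt-1 and -0.09 in oga-1 mutants. Lowest in the family after scrm-4 were values of -0.16 in ogt-1 and -0.20 in oga-1 mutants. That scrm-4 lies below them follows in part from how it was picked.

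Of the other 15 measured lipase-related genes, 0 rose and 1 fell in ogt-1 mutants, and 0 were called by limma in oga-1 mutants (2 at an unadjusted p under 0.05), shares near those over all probe sets. The gene that fell was lips-14, from 6.05 ± 0.21 in the wild type to 4.35 ± 0.07 (SD, n = 3 each), a log2 change of -1.69 (limma adjusted p = 5.1e-06), while oga-1 mutants read 5.99 ± 0.19 (SD, n = 3). The family's median difference was 0.06 in ogt-1 and -0.10 in oga-1 mutants. The largest positive differences of any other family member were 0.25 and 0.09, against 0.61 and 0.89 for the brighter probe set of lips-10. As lips-10 was picked on these differences, its place above its family follows in part from the choice.

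Of 23 other measured genes of mitochondrial protein import, 10 fell and 2 rose in ogt-1 mutants and 0 were called by limma in oga-1 mutants (2 at an unadjusted p under 0.05). The share that fell in ogt-1 mutants can be read against 9.15% of all probe sets. Those that fell included the inner membrane translocase genes timm-17B.2 at -0.74 (limma adjusted p = 9.7e-04) and timm-23 at -0.63 (limma adjusted p = 0.001). The outer membrane genes gop-3, the counterpart of yeast Sam50, and mtx-1, a metaxin, rose by 0.83 (limma adjusted p = 7.5e-04) and 0.79 (limma adjusted p = 0.002). The median of the list was -0.28 in ogt-1 and 0.09 in oga-1 mutants, against -0.02 and -0.01 over all probe sets, and tin-10 lay below all 23 in both mutants. It differed by -0.99 in ogt-1 mutants, where the lowest of the 23 was -0.74, and by -0.66 in oga-1 mutants, where the lowest was -0.17. Because tin-10 was picked on these differences and the 23 were not, its place follows in part from the choice.

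The metaxin gene mtx-1 read 8.12 ± 0.14 in the wild type, 8.91 ± 0.25 in ogt-1 mutants and 8.83 ± 0.18 in oga-1 mutants (SD, n = 3 each). Its difference of 0.70 in oga-1 mutants missed the threshold (limma adjusted p = 0.065), and it passed after quantile normalization, with array weights, and without ogt-1 array 1 or 3 (limma adjusted p = 0.0148 to 0.0481). Of 15 measured genes for the exposure of phosphatidylserine and the clearance of dying cells, 1 fell in ogt-1 mutants, the Rac GTPase gene ced-10 at -0.42 (limma adjusted p = 0.022), and 0 were called by limma in oga-1 mutants (1 at an unadjusted p under 0.05). For ced-10 the call was lost when array 1 or 2 of either strain was left out (limma adjusted p = 0.0642 to 0.0963) and with the mean of its probe sets. The medians of that list were -0.06 and 0.04. Over the 5 lists together, 19 of 66 genes were called in ogt-1 mutants, where 17.3% of all probe sets were, and 12 without wild-type array 2 or without ogt-1 array 2. In oga-1 mutants 0 of 66 were called by limma (7 at an unadjusted p under 0.05), and 1 without ogt-1 array 1 or without ogt-1 array 3, the gene mtx-1.

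**Figure D5:**
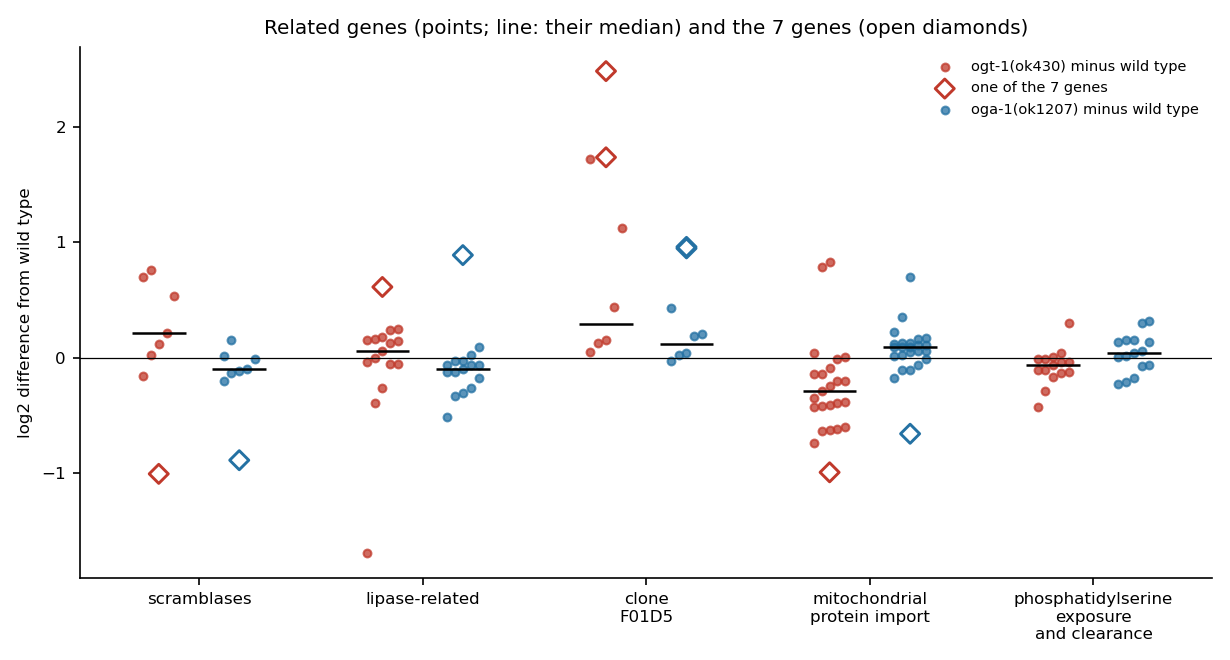
Log2 difference from the wild type (vertical axis) in ogt-1 and oga-1 mutants for the genes of 5 lists, as points with their median as a line. Open diamonds mark scrm-4, lips-10, F01D5.1 and F01D5.5, and tin-10 beside their relatives. In oga-1 mutants scrm-4 and tin-10 lie below, and lips-10, F01D5.1 and F01D5.5 above, the points of their lists. These places follow in part from how the genes were picked.

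Over the 9 arrays, Pearson's r between 2 of the genes reached 0.95 for F01D5.1 with F01D5.5 and -0.96 for F01D5.1 with tin-10, which mostly restates how the strains differ. After each strain's mean was taken off, r over the 9 arrays ranged from -0.74 to 0.63 in the 21 pairs, with a median of 0.01 and 11 pairs above 0. F01D5.1 and F01D5.5 then had an r of 0.01. These values describe 9 arrays of 3 strains and carry no test.

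Genes whose signals followed one of the 7 most closely over the 9 arrays were sought among 2277 other genes that spanned at least 1 log2 unit. F55G11.2 and mbug-1 were nearest to F01D5.1 (r = 0.98 for each), and mbug-1 and the galectin gene lec-10 to F01D5.5 (r = 0.98 for each). The genes oat-1, related to organic anion transporters, and fmo-5, a flavin monooxygenase, were nearest to tin-10 (r = 0.96 and 0.95). For C55C3.3 they were the p21-activated kinase gene pak-1 and the transthyretin-related ttr-31 (r = 0.93 and 0.91), and for scrm-4 the homeodomain gene ceh-20 and srx-119 (r = 0.93 and 0.92). For lips-10 they were ctsa-4.1 and cdr-1 (r = 0.87 and 0.83), and for T27F6.7 ctsa-4.1 again and mdf-2, a spindle checkpoint gene (r = 0.88 and 0.85). Of these 12 genes, ctsa-4.1 and mbug-1 were nearest to 2 of the 7 genes.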

How the data were processed

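The authors deposited log2 signals of 22625 probe sets for 9 arrays, and the array means are equal, at 5.91. The tools named in the submitters' processing notes are MAS5, RMA and Partek, without saying what each did. Neither the deposited table nor the labels name a genome build, so no coordinates are printed. After 77 control probe sets were left out, the 22548 others entered one linear model per probe set with a coefficient for each strain (limma 3.58.1, moderated by eBayes, under R 4.3.3), unfiltered. That leaves 6 residual degrees of freedom. Benjamini-Hochberg adjustment ran over all probe sets within a comparison, two-sided, and "rose" and "fell" refer to an adjusted p under 0.05. Differences are log2 values except where a fold is named. Precision is limited by the number of arrays, and the median standard error of a difference was 0.11. The fit was tested on simulated data.

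Symbols came from the platform annotation and were updated through gene identifiers, and 20766 probe sets named 1 gene, 887 several and 895 none. A gene with several probe sets was read from the one with the highest mean signal. Gene order and chromosomes came from the RefSeq gene table of WBcel235. The rule for named genes took the 7 genes with all their probe sets, ogt-1 and oga-1, for each of the 7 the 2 genes of most like pattern, every probe set called alike in both mutants, and up to 2 called genes per list and direction, by smallest p. Marker genes and some genes beside the 7 were named as well. The 7 genes and the lists were chosen with earlier results of these data known. Equal replicate numbers were not taken as pairs: same-numbered arrays formed 9 pairs, whose deviations from their strains' means had correlations of -0.17 to 0.24. Alternatives were a robust fit with an intensity trend, quantile normalization, array weights, centring on the median, dropping probe sets below the median level, the groups compared alone, the replicate number as a block, the mean of a gene's probe sets, leaving out each array, and leaving out the 3 arrays with an SD above 1.8.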

Additional observations from a re-analysis of the deposited data

How the results depend on the processing

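The count of the 7 genes called between the mutants was 3, and 2 to 3 without 1 array. Without the 3 arrays with an SD above 1.8, so that the lone oga-1 array is given the spread of the other groups, 1 of the 7 was called between the mutants, 2544 probe sets in all between the mutants, 3 between oga-1 and the wild type and 2 alike in both mutants, 0 of them among the 7, with 0 oga-1 neighbours. There the scrm-4 difference between the mutants turned to 0.0045. With quantile normalization, the intensity trend and array weights, 91, 94 and 848 probe sets were called in oga-1 mutants, in place of 58, and 42, 44 and 209 alike in both, in place of 27. Array weights gave 3 list genes and 2 neighbours in oga-1 mutants, and quantile normalization 1 list gene. Without 1 array, 9 to 89 probe sets were called in oga-1 mutants, 7 to 47 alike in both with 1 to 7 of the 7 genes, 12 to 22 list genes and 5 to 9 neighbours in ogt-1 mutants, and 0 to 1 of each in oga-1 mutants. The C55C3.3 difference between the mutants, 0.02, was -0.010, -0.019 and -0.066 with quantile normalization, median centring and array weights, and ranged from -0.119 to 0.114 without 1 array, turning negative without ogt-1 array 1 or oga-1 array 2. With the replicate block 3 of the 7 were called between the mutants, and 4039, 77 and 5578 probe sets in place of 3891, 58 and 5381, although equal numbers are not known to mark pairs and 3 of 9 arrays correlated best with their own number. The block moved no other count by over 1.5 times. Of 1827 alternative values, 1724 were taken as unchanged. That meant within 1.5 times for a count, within 0.1 for a correlation and the same side of the threshold for a tested difference. For a difference without a test it meant within the spread. Some values could not change, such as an ogt-1 difference from the wild type without an oga-1 array. The causes of the changes in the other values were not tested. Dim signals limit what can be seen of falls in scrm-4 and C55C3.3.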
